A study of Bos taurus with 129 samples.

Results

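The cathelicidins are a family of antimicrobial peptide genes, and the 6 bovine members described here, CATHL1, CATHL2, CATHL3, CATHL4, CATHL5 and CATHL6, were taken by symbol from a whole-blood gene table. All 6 were present among its 32395 genes. The table held RNA sequencing libraries from 26 high-risk stocker steers, which were bled at study day 0 and at days 13, 28, 45 and 60. By the disease label, 12 steers were healthy (59 libraries) and 14 had bovine respiratory disease, BRD (70 libraries). The healthy cattle had neither a diagnosis nor a treatment for BRD over the 60 days, and the dates of diagnosis of the other cattle are not given in the sources used here, so a BRD library may come from before, during or after illness. The study asked how 3 trace mineral programs act on blood gene expression. INR cattle received copper, cobalt, manganese and zinc as sulfates, AAC cattle received the 4 elements complexed to amino acids, and COMBO cattle received the AAC feed plus an oral mineral drench, given before shipment, at day 0 and with any treatment for illness. Each supplement held 4 healthy steers, and the BRD steers were 4 AAC, 3 COMBO and 7 INR. All cattle were commercial crossbred steers, were vaccinated at day 0 and again later, and were dewormed at day 0. The day 13 library of steer 48 had been removed by the authors at the read quality step because it failed to cluster.

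Cathelicidins are made as precursors with a conserved cathelin-like region and a variable carboxy-terminal peptide that is released by proteolysis and kills microbes by disrupting membranes or by acting inside the cell. In cattle they are best known from neutrophils, where the precursors are stored in large granules and where the genes are read mainly while the cells mature in bone marrow, so that circulating neutrophils hold much of the protein and little of the message. CATHL1 encodes bactenecin, a small cyclic peptide. CATHL2 (also Bac5) and CATHL3 (also BAC7) encode long proline-rich peptides, CATHL4 encodes the tryptophan-rich indolicidin, and CATHL5 and CATHL6 encode alpha-helical myeloid peptides.

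All 6 members matched a RefSeq gene by symbol. In the RefSeq annotation of ARS-UCD2.0, which is not the assembly of the files (ARS-UCD1.3) and was used for names and order alone, the genes form 1 cluster between NME6 and CDC25A. Their order is CAMP (also CATHL7), 2 unnamed protein-coding loci, CATHL4, CATHL1, a pseudogene, CATHL3, CATHL2, an unnamed locus, CATHL6 and CATHL5. CAMP is also listed as a synonym of CATHL3, so which of the genes the CAMP counts of the files belong to rests on the symbol alone. Members of this family share a conserved region, and their full sequences were not compared here. How the read mapping shared reads among them is not known, so the split of counts between neighbours is uncertain. The 2 genes that flank the cluster were read in every library, with 58657 counts for NME6 and 57627 for CDC25A in all, against 84 for CAMP.

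Cathelicidin transcripts were near the limit of detection in these bloods. Library totals ran from 31613500 to 61692100 counts with a median of 44268700 (rounded to 6 digits), and the 6 members together had 2047 counts over all libraries. A single count was worth 0.0228 CPM (the count scaled to the size of its library) in the median library. A member is called detected here at 3 or more counts, the floor used for a count of 0. This was 0.0482 to 0.0914 CPM depending on the library. Counts were derived from read coverage rather than tallied reads, so 3 counts need not be 3 separate reads. Such a floor covers counting error at most, and may not cover it fully. CATHL2 had 1 or more counts in 65 libraries and CATHL5 in 73, so most nonzero libraries of these genes passed the floor. CATHL5 was detected in 67 libraries (51.9%), CATHL2 in 61 (47.3%) and CATHL3 in 46 (35.7%). CATHL1 was detected in 20 (15.5%), CATHL6 in 17 (13.2%) and CATHL4 in 15 (11.6%). In 26 libraries no member reached the floor, and in 16 of those all members stood at 0. Neither the summed member count (Spearman rho 0.0935 with library total over all libraries) nor the number of members detected (rho 0.123) followed depth closely; libraries of 1 steer share that steer. Blood markers were present throughout: CD3E of T cells, MS4A1 of B cells and CXCR2 of neutrophils were detected in every library, with medians of 15523, 30810 and 2967 counts. In bulk blood, fewer cells of a type and less RNA per cell cannot be told apart.

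The share of a gene's counts that lay in its 5 highest libraries ran from 57.9% for CATHL1 to 23.9% for CATHL5. CATHL1, the cyclic peptide gene, ranged from 0 to 52 counts with a median of 0, and its 5 highest libraries held 57.9% of its 221 counts. CATHL4 was similar, from 0 to 21 counts, with 54.5% of its counts in 5 libraries. CATHL6 ranged from 0 to 20 counts, with 48.1% of its counts in 5 libraries. The proline-rich gene CATHL2 ranged from 0 to 91 counts with a median of 2, and 43.1% of its 738 counts lay in 5 libraries. CATHL3 ranged from 0 to 32 counts around a median of 0, and 32.8% of 314 counts lay in 5 libraries. CATHL5 was the most evenly spread, from 0 to 41 counts with a median of 3 and 23.9% of 556 counts in 5 libraries. CATHL5 was detected at least once in 25 of the 26 steers and CATHL2 in 24, against 21 for CATHL3, 14 for CATHL6, 13 for CATHL1 and 11 for CATHL4. Detection on all 5 days was seen for CATHL5 alone, in 2 steers (9 and 30).

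**Figure D1:**
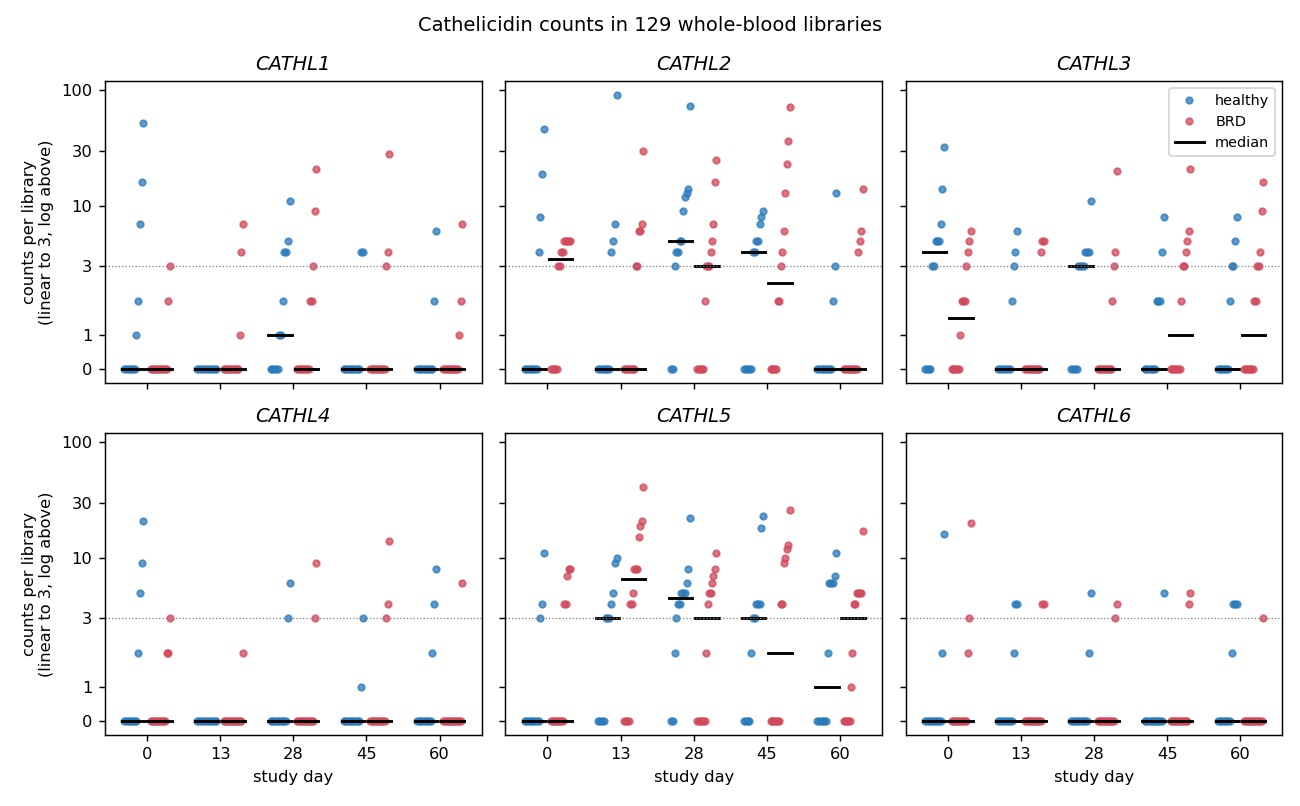
Counts of each cathelicidin in each library (vertical axis, linear to 3 and logarithmic above) by study day, for healthy (blue) and BRD (red) steers, 11 to 14 libraries a group. Black bars are group medians and the dotted line is the detection floor of 3 counts. Most points lie at 0 for CATHL1, CATHL4 and CATHL6, and single libraries reach 52 for CATHL1, 91 for CATHL2 and 41 for CATHL5.

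High libraries are described here in 3 kinds by which member carried the counts, and not every one falls into them. In the first, the members were high together. The day 0 library of steer 50 (healthy, INR) was the highest of all, with 52 counts of CATHL1, 46 of CATHL2, 32 of CATHL3, 21 of CATHL4, 11 of CATHL5 and 16 of CATHL6. The day 45 library of steer 31 (BRD, AAC) had 28, 36, 21, 14, 12 and 4 counts in the same order. CATHL1, CATHL2, CATHL3 and CATHL4 were all detected in 10 libraries from 8 steers, of which 6 libraries were healthy and 4 BRD. The CAMP symbol was detected in 10 libraries, and 8 of these 10 libraries were among those with all 4 members.

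In the second kind, CATHL2 stood alone. Steer 7 (healthy, INR) had 91 counts of CATHL2 at day 13 and 73 at day 28, beside 0 and 2 of CATHL1 and none of CATHL4. Steer 18 (BRD, COMBO) had 72 counts of CATHL2 at day 45 and 0 of every other member. Steer 23 (BRD, INR) had 30, 25 and 23 counts of CATHL2 on days 13, 28 and 45, with at most 3 of CATHL1 and none of CATHL3. Of the 16 libraries with 10 or more counts of CATHL2, 10 had CATHL1, CATHL3 and CATHL4 all under 10.

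In the third, CATHL5 led. Steer 21 (BRD, AAC) had 41 counts of CATHL5 at day 13 beside 7 of CATHL1, 6 of CATHL2 and 5 of CATHL3. Steer 9 (BRD, AAC) had 19, 26 and 17 counts of CATHL5 on days 13, 45 and 60 with 0 of CATHL1, CATHL3 and CATHL4 in each. Of the 16 libraries with 10 or more counts of CATHL5, 12 had CATHL1 to CATHL4 all under 10. CATHL6, the neighbour of CATHL5, reached 10 counts in 2 libraries, the day 0 libraries of steer 50 with 16 and of steer 43 (BRD, INR) with 20. The steer 43 library was of none of the 3 kinds, since CATHL6 led there, beside 8 counts of CATHL5 and 5 of CATHL2.

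**Figure D2:**
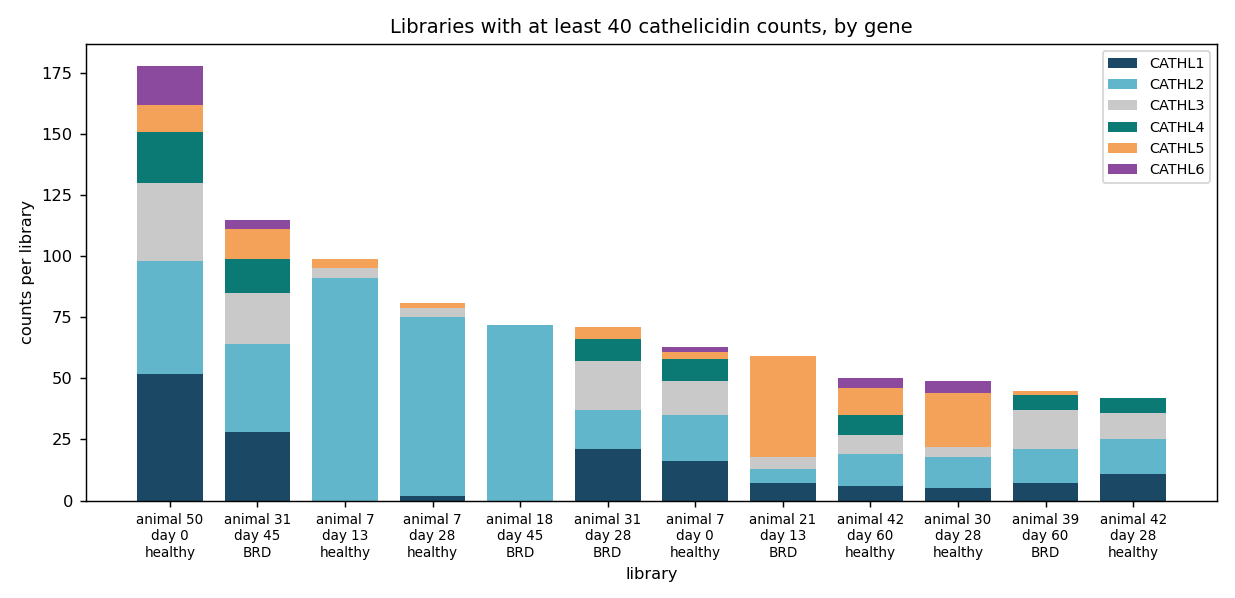
Counts of the 6 cathelicidins, stacked, in the 12 libraries with at least 40 counts over the family, which held 45.1% of all member counts (horizontal axis, steer, study day and class). The libraries of steers 50, 31 and 42 hold CATHL1 to CATHL4 side by side, while CATHL2 makes up 91.9% of the steer 7 day 13 library and 100% of the steer 18 library. Heights of different genes are counts and are not scaled for transcript length.

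Over all libraries the CPM of CATHL1 and CATHL4, which are neighbours in the cluster, had a Pearson r of 0.912. CATHL3 had r of 0.850 with CATHL1 and 0.869 with CATHL4. Without the day 0 library of steer 50 these values were 0.816, 0.731 and 0.766. CATHL2 had r between 0.377 and 0.415 with these 3 genes, and CATHL5 between 0.107 and 0.193. Without the same library the r of CATHL2 with CATHL1, CATHL3 and CATHL4 was 0.285, 0.239 and 0.264, and that of CATHL4 with CATHL5 went from 0.107 to 0.042. CATHL5 and CATHL6 had r of 0.235 (0.211 without it), and CATHL2 and CATHL5 of 0.0527 (0.019 without it). By rank the CATHL1, CATHL3 and CATHL4 values were lower (Spearman rho 0.345 to 0.464). CATHL2 had a rho within that range with CATHL1 (0.422) and CATHL4 (0.348), and a lower one with CATHL3 (0.206). These are descriptions over libraries that share steers, and reads of the conserved region may be shared between genes. By detection, 13 of the 15 libraries with CATHL4 also had CATHL3 (86.7%), which is 28.3% of the 46 libraries with CATHL3. CATHL2 was likewise detected in 13 of the 15 libraries with CATHL4 (86.7%) and in 17 of the 20 with CATHL1 (85%). Of the 17 libraries with CATHL6, 14 also had CATHL5 (82.4%), which is 20.9% of the 67 with CATHL5.

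Counts came and went within a steer. Steer 50 fell from a summed member count of 178 at day 0 through 18, 17 and 2 to 0 at day 60. Steer 31 had 12, 15 and 71 at days 0, 13 and 28, its highest value at day 45 and 4 at day 60. Steer 7 had 63, 99, 81, 8 and 7. Its composition changed from 5 members detected at day 0, with CATHL6 at 2 counts, to CATHL2 almost alone at days 13 and 28. Steers 7, 31 and 50 held 12.6%, 10.6% and 10.5% of all member counts. At the other end, the 5 libraries of steer 16 (BRD, COMBO) summed to 13 counts and those of steer 57 (healthy, COMBO) to 19. In 11 of the 26 steers the summed count was 3 or more in every library.

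**Figure D3:**
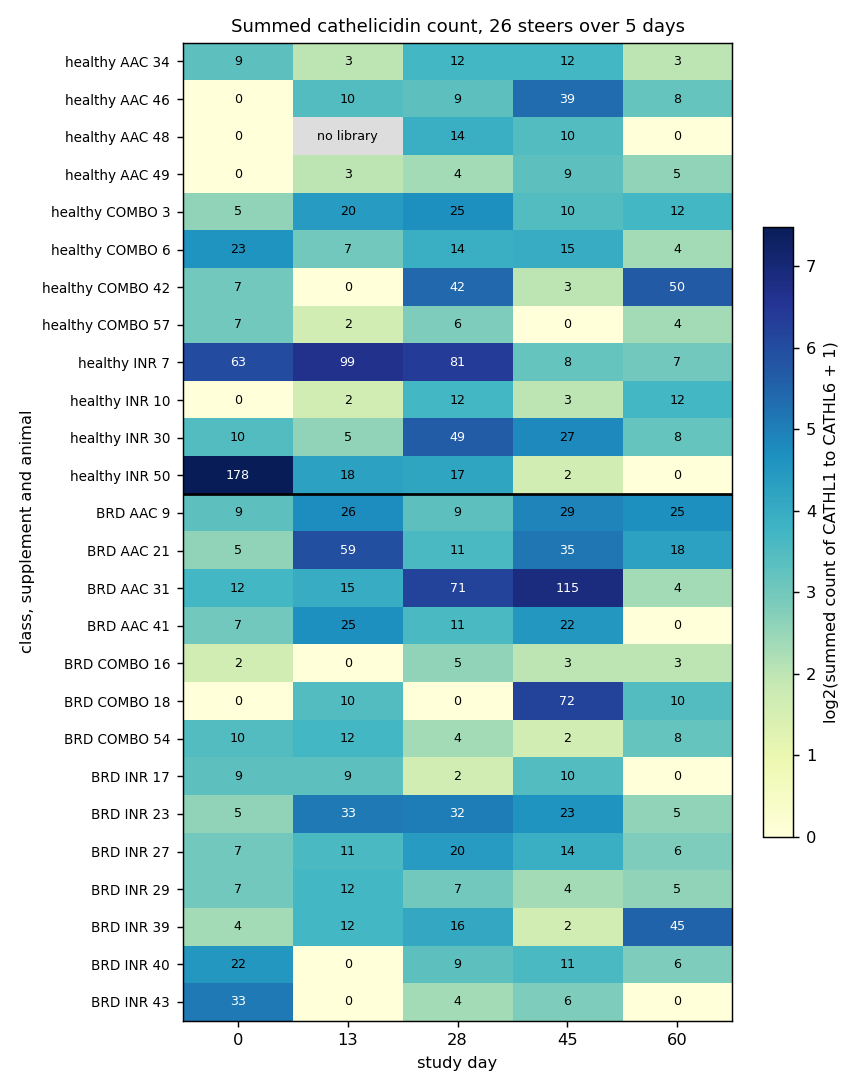
Summed count of CATHL1 to CATHL6 for each steer (rows, by class, supplement and animal number) on each study day (columns), with the count printed and the colour on a log2(count + 1) scale. The highest healthy cells are 178 and 99, and steers 50, 7 and 31, which hold the 3 highest cells, each end at 7 or lower on day 60. The grey cell has no library.

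The first comparison asked whether cattle with the BRD label differed from healthy cattle on the same day. At day 0 the 12 healthy libraries had CATHL1 counts of 0 at the lowest and the median and 52 at the highest, with the next at 16, and the 14 BRD libraries ran from 0 to 3. CATHL4 ran to 21 in healthy cattle and to 3 in BRD cattle. CATHL3 ran from 0 over a median of 4 to 32 in healthy cattle and from 0 over 1.5 to 6 in BRD cattle. The groups overlapped for every member. At day 13 all 11 healthy libraries had 0 counts of CATHL1 and of CATHL4, while CATHL1 ran to 7 in BRD cattle (11 of 14 at 0) and CATHL4 to 2. CATHL1, CATHL3, CATHL4 and CATHL6 did not pass the filter on low counts (17853 genes passed), so they have no test among those genes. In a fit to all 26992 genes with a count, CATHL1 at day 0 was lower in BRD cattle by fitted value, at -4.26 ± 1.02 (log2, SE), with an adjusted p of 0.229 by edgeR. The healthy libraries held 78 counts of CATHL1 at day 0, of which 52 came from steer 50 and 16 from steer 7.

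CATHL2 and CATHL5 were tested with edgeR's quasi-likelihood F-test, and neither was called between the classes on any day. CATHL2 at day 0 ran from 0 over a median of 0 to 46 counts in healthy cattle and from 0 over 3.5 to 5 in BRD cattle. The 2 highest healthy values belonged to steers 50 and 7, and all other healthy values were 8 or lower. At day 13 CATHL2 had medians of 0 in both classes, with highest values of 91 and 30. At day 28 its medians were 5 in healthy and 3 in BRD cattle, and at day 45 they were 4 and 2.5, with 4 BRD and 0 healthy libraries at 10 counts or more. The fitted log2 differences, BRD minus healthy, were -1.30 ± 0.91 (SE), -1.05 ± 0.85, -1.20 ± 0.77, 1.63 ± 0.79 and 0.76 ± 1.15 in day order. The day 45 value had an unadjusted p of 0.0424 and an adjusted p of 0.99999, and without steer 18 it was 0.67. The sign at days 0, 13 and 28 was not stable: in the 15 steers of the 4 labelled pens that held both classes, with that pen as a block, the differences were -0.13 ± 1.61, 0.83 ± 1.64 and 0.32 ± 1.17, and without steer 7 the day 13 value was 1.23. The labels give 1 pen a steer, and per the study's methods cattle were moved between pens during the study, so the labelled pen may not be the pen at the later days. By that label COMBO healthy and COMBO BRD steers were in different pens, so class and labelled pen cannot be told apart within COMBO.

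CATHL5 ran from 0 over a median of 0 to 11 in healthy and to 8 in BRD cattle at day 0. At day 13 the healthy libraries ran from 0 over 3 to 10 and the BRD libraries from 0 over 6.5 to 41, with 4 BRD libraries above the highest healthy one. Medians were 4.5 and 3 at day 28, 3 and 2 at day 45, and 1 and 3 at day 60 for healthy and BRD cattle. The fitted log2 differences were 0.33 ± 0.89, 1.14 ± 0.70, -0.68 ± 0.66, -0.24 ± 0.67 and 0.02 ± 0.73 on the 5 days. The lowest unadjusted p was 0.107, at day 13, and limma voom with a correlation within animals gave 1.67 ± 0.71 there with an adjusted p of 0.999. On the 5 days 0 of the 2 tested members passed an adjusted p (FDR, Benjamini-Hochberg over all tested genes) of 0.10 by edgeR, with 1 at an unadjusted p under 0.05 (CATHL2 at day 45), and 0 passed by DESeq2. Among all 17853 tested genes the percentages called were 0.0056 at days 0 and 13 and 0 at each later day, so that almost no gene of any kind was called between the classes.

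The second comparison asked how the genes changed from day 0 within the same steers, with animal as a block. CATHL5 rose. In healthy cattle it ran from 0 over a median of 0 to 11 counts at day 0, where 9 of 12 libraries were at 0, and from 0 over 4.5 to 22 at day 28, where 2 of 12 were at 0. It was higher at day 28 in 8 steers, lower in 2 and at 0 both times in 2. Mean CPM went from 0.0357 ± 0.0827 (SD, n = 12) to 0.109 ± 0.109, a ratio of 3.05. The fitted log2 change was 2.76 ± 0.88 (SE) with an adjusted p of 0.0234 by edgeR. The fit weights the 3 supplements equally, and CATHL5 was at 0 in all 7 COMBO libraries of day 0; with no supplement term the change was 1.58 with an adjusted p of 0.138. In BRD cattle CATHL5 ran from 0 over 0 to 8 counts at day 0, where 9 of 14 libraries were at 0, and from 0 over 6.5 to 41 at day 13, where 4 of 14 were at 0. It was higher at day 13 in 9 steers and lower in 3. The 4 highest day 13 libraries were those of the 4 AAC steers with BRD, 9, 21, 31 and 41, which had 7, 0, 0 and 4 counts at day 0 and 19, 41, 15 and 21 at day 13, while the other 10 BRD steers ran to 8 on both days. Mean CPM went from 0.0517 ± 0.0769 (n = 14) to 0.241 ± 0.308, a ratio of 4.66, and the fitted log2 change was 2.86 ± 0.79 with an adjusted p of 0.00808.

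The other changes of CATHL5 from day 0 were upward in the fit and did not pass the threshold. In healthy cattle they were 2.32 ± 0.94 at day 13, 2.39 ± 0.98 at day 45 and 2.18 ± 0.93 at day 60, with adjusted p of 0.122, 0.147 and 0.135. In BRD cattle they were 1.40 ± 0.84 at day 28, 1.31 ± 0.88 at day 45 and 1.55 ± 0.83 at day 60, with adjusted p of 0.287, 0.340 and 0.229. Leaving out each steer of the class in turn, the called changes stayed between 2.34 and 3.61 at day 28 in healthy cattle and between 2.56 and 3.28 at day 13 in BRD cattle, with adjusted p of at most 0.0865 and 0.0377.

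CATHL2 rose from day 0 in BRD cattle at day 45. Counts ran from 0 over a median of 3.5 to 5 at day 0 and from 0 over 2.5 to 72 at day 45, so the median fell while 4 libraries reached 10 counts or more. It was higher in 8 of 14 steers and lower in 5. The fitted log2 change was 1.92 ± 0.79 with an adjusted p of 0.0855. This call rested on few steers: without steer 18, 21, 23, 31, 39 or 43 it was lost, the change without steer 18 being 0.84, and DESeq2 gave 0.39 with an adjusted p of 0.857. In the other 7 changes CATHL2 ran from -1.58 ± 1.07 (healthy, day 60) to 1.01 ± 0.77 (healthy, day 28), none of them called. Without steer 50 the healthy day 28 change was 2.09 with an adjusted p of 0.0878, since the high day 0 library of that steer is then left out.

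**Figure D4:**
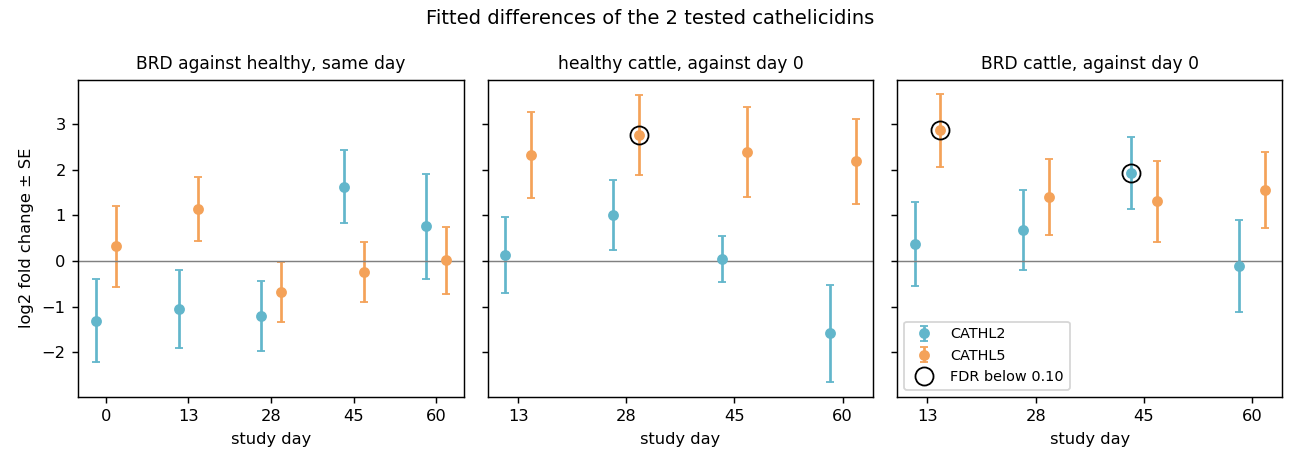
Fitted log2 fold changes of CATHL2 (blue) and CATHL5 (orange) with their SE: BRD minus healthy on each study day (left), and each later day minus day 0 in healthy (middle) and BRD (right) cattle. Black rings mark FDR below 0.10, which are CATHL5 at day 28 in healthy cattle and at day 13 in BRD cattle, and CATHL2 at day 45 in BRD cattle. All 8 CATHL5 changes from day 0 lie above 0, and all error bars of the left panel belong to values that were not called. The changes of a class share its day 0 libraries, and CATHL5 was at 0 in all COMBO libraries of day 0.

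These calls have to be read against how many genes changed over the study. In healthy cattle 1 of the 2 tested members was called at day 28 and 0 on the other days by edgeR, and the percentages of all tested genes called were 10.4 at day 13, 21.9 at day 28, 9.2 at day 45 and 12.6 at day 60. In BRD cattle 1 of 2 was called at days 13 and 45 and 0 at days 28 and 60, against 19.8%, 20.3%, 22% and 18.3% of all tested genes at days 13, 28, 45 and 60. Where no member was called, CATHL5 in healthy cattle had an unadjusted p of 0.0151 at day 13, 0.0171 at day 45 and 0.0211 at day 60. The change from day 0 was also compared between the classes over all 4 later days, in which 0 of the 2 members and 0% of all genes were called. The unadjusted p was 0.217 for CATHL2 and 0.205 for CATHL5, so a difference in time course between healthy and BRD cattle was not detectable here.

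For the other 4 members, counts over time give the same picture of few high libraries. In healthy cattle CATHL1 was detected in 3 of 12 libraries at day 0, 0 of 11 at day 13, 4 of 12 at day 28, 2 of 12 at day 45 and 1 of 12 at day 60. In BRD cattle it was detected in 1, 2, 3, 3 and 1 of 14. CATHL4 was detected in 0 of the 25 libraries of day 13 and in 3 or 4 libraries of each other day. CATHL3 was detected in 12 of 26 libraries at day 0 and in 6 to 11 later, and CATHL6 in 3 or 4 on every day. In the fit to all genes with a count, CATHL5 was called in the same 2 changes, where 12.4% (healthy, day 28) and 11.1% (BRD, day 13) of genes were called. In that fit CATHL1 was also called in BRD cattle at day 28, with an adjusted p of 0.0389 beside 11.9% of all genes. Its 14 libraries summed to 5 counts at day 0 and to 37 at day 28, of which 21 came from steer 31. The fitted CATHL3 changes in healthy cattle were downward on every later day. At days 13, 45 and 60 they were -1.81 ± 0.79 (SE), -1.67 ± 0.75 and -1.70 ± 0.73. The unadjusted p by edgeR was 0.0243, 0.0285 and 0.0224, and none was called. CATHL4 had -4.78 ± 1.79 at day 13 (p = 0.0122, not called), where all its healthy counts were 0. In BRD cattle the CATHL3 changes ran from -0.76 to 0.47.

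The third comparison was between the supplements. CATHL5 was highest in AAC cattle at day 13, where its 7 libraries ran from 0 over a median of 15 to 41 counts, against 0 over 4 to 9 in 11 INR libraries and 0 over 3 to 8 in 7 COMBO libraries. The 4 highest AAC libraries, with 41, 21, 19 and 15, were the same 4 BRD libraries that lay above every healthy one, and the 3 healthy AAC libraries had 10, 3 and 0. At day 45 the 8 AAC libraries ran from 4 over 8 to 26 and the 7 COMBO libraries from 0 over 0 to 3. The 11 INR libraries ran from 0 over 0 to 18. The lowest AAC count and the highest COMBO count, 4 and 3, lie at or next to the detection floor of 3 counts. The fitted log2 differences between AAC and COMBO were 2.42 ± 0.88 (SE) at day 13 and 3.76 ± 1.04 at day 45, and those between AAC and INR were 1.81 ± 0.71 and 1.48 ± 0.69. In the F-test over the 3 supplements the unadjusted p was 0.00696 at day 13 and 0.00135 at day 45, with adjusted p of 0.290 and 0.589, so neither passed. At day 28 the medians were 6, 3 and 2 in AAC, COMBO and INR, and at day 60 they were 3, 0 and 2, and neither day had an unadjusted p under 0.05.

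At day 0, the first sampling, COMBO cattle had already been drenched before shipment, and both tested members had an unadjusted p under 0.05 between the supplements. CATHL5 was detected in 6 of 11 INR, 2 of 8 AAC and 0 of 7 COMBO libraries (p = 0.0144, adjusted p = 0.478). CATHL2 was detected in 8 of 11 INR, 3 of 8 AAC and 2 of 7 COMBO libraries and ran to 46, 4 and 8 counts (p = 0.0207, adjusted p = 0.540). At day 13 CATHL2 ran to 91 in INR, 7 in AAC and 7 in COMBO, with medians of 0 in all 3 (p = 0.0212, adjusted p = 0.416). On later days its p was 0.155, 0.292 and 0.527. By edgeR 0 of the 2 members were called on each day, beside 0.0672%, 0.414%, 0.028%, 0.0056% and 0.0056% of all tested genes in day order, and DESeq2 called 0 as well. In the change from day 0, compared between the supplements with animal as a block, 0 members and 0.0056% of genes were called, and the unadjusted p was 0.0197 for CATHL5 and 0.0642 for CATHL2. By the labelled pen no pen held steers of more than 1 supplement, so supplement and labelled pen cannot be told apart.

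Genes of related function were counted in the same changes from day 0. Of all tested genes, 10.4%, 21.9%, 9.2% and 12.6% were called in healthy cattle at days 13, 28, 45 and 60, in both directions. In BRD cattle the shares were 19.8%, 20.3%, 22% and 18.3% in the same order. In a list of other antimicrobial peptides and proteins, 0 of 9 tested genes rose in any of the 8 changes, and 3 to 5 fell in healthy cattle and 3 to 7 in BRD cattle, on days with and without a CATHL5 call. BPI, a granule protein that binds endotoxin, fell by 2.42 on the log2 scale in healthy cattle at day 28 and by 2.06 in BRD cattle at day 13. The beta-defensin DEFB7 fell by 0.65 and 1.17, and DEFB1 by 0.55 and 0.94. The median log2 change of the list was -0.50 in healthy cattle at day 28 and -0.79 in BRD cattle at day 13, beside 0.0084 and 0.0092 for all genes. Of 16 tested genes of mature neutrophils, 2, 7, 1 and 4 fell in healthy cattle in day order and 9, 11, 7 and 8 in BRD cattle, with at most 2 rising in any change. The 2 and 1 of 16 in healthy cattle at days 13 and 45 were near the shares of all genes. S100A8 and S100A12, abundant calcium-binding proteins of these cells, fell by 1.17 and 1.06 in BRD cattle at day 13. Among 11 tested granule proteins of granulocyte precursors 1 to 4 rose and 0 to 3 fell in each change. ARG1, an arginine-degrading enzyme, rose by 3.01 ± 0.60 in healthy cattle at day 28 and by 3.67 ± 0.56 in BRD cattle at day 13. It was the 1 gene of the list that rose in healthy cattle at day 28, where 0 fell. In BRD cattle at day 13, 3 genes of the list rose and 3 fell, among them CHI3L1 (-0.98) and LCN2 (-0.41).

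At least 5 of the tested genes of red cells rose from day 0 in each of the 8 changes, whether or not a member was called. Of 10 tested erythroid genes, 7, 7, 7 and 6 rose in healthy cattle at days 13, 28, 45 and 60, with median log2 changes of 2.00, 1.84, 2.35 and 1.87. In BRD cattle 10, 6, 10 and 5 rose, with medians of 2.85, 1.40, 2.34 and 1.62, and none fell in either class. The shares of all genes called in these changes are those given above. ALAS2, the first enzyme of haem synthesis in red cells, rose by 2.99 ± 0.62 in healthy cattle at day 28 and by 3.93 ± 0.61 in BRD cattle at day 13. The summed CPM of the erythroid list had a median of 192 and a highest value of 1795 in healthy cattle at day 0 and ran from 291 to 18802 at day 28, and in BRD cattle from 60.9 to 6952 at day 0 and from 403 to 85916 at day 13; the part of these transcripts in the cathelicidin changes was not tested. The globin genes are close copies, and their own counts are uncertain in the same way.

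The level of every other tested gene was also compared with the summed CPM of the 6 members over all libraries. By Spearman rho among 17851 other genes the 10 highest included SLC4A1 (0.578), the anion exchanger of the red cell membrane, then ADD2 (0.542), RAB3IL1 (0.536), DMTN (0.530), ANKRD9 (0.513), RHAG (0.509), GPR146 (0.508), HEMGN (0.492) and CA2 (0.478). Of these, SLC4A1, HEMGN and CA2 are in the erythroid list. ADD2 and DMTN encode parts of the membrane skeleton of red cells, RHAG a membrane channel protein and HEMGN a nuclear protein of erythroid precursors. Over deviations from the mean of each steer, the rho of SLC4A1 was 0.491 and those of ADD2, RHAG and DMTN were 0.512, 0.502 and 0.502. Without steers 7, 31 and 50 the rho of SLC4A1 was 0.539. The median rho of all genes was 0.0092, and 53 genes were above 0.4.

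Granule genes had lower values. The secondary granule protein LTF (lactoferrin) had a rho of 0.427 with the summed members, PGLYRP1, a peptidoglycan-binding granule protein, 0.396, the serine protease relative AZU1 0.324, the peroxidase MPO 0.215, and the elastase ELANE, a protease of primary granules, 0.0786. CXCR2, the chemokine receptor of mature neutrophils, had 0.0877. As summed lists, erythroid genes had a rho of 0.458, other antimicrobial genes 0.363, granule proteins 0.327, mature neutrophil genes 0.237 and B cell genes -0.383. Over deviations from the mean of each steer these values were 0.394, 0.103, 0.220, 0.0658 and -0.0078 in the same order, each nearer 0 than over all libraries. All rho values are descriptions over the same 59 healthy and 70 BRD libraries, which share steers and library composition.

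**Figure D5:**
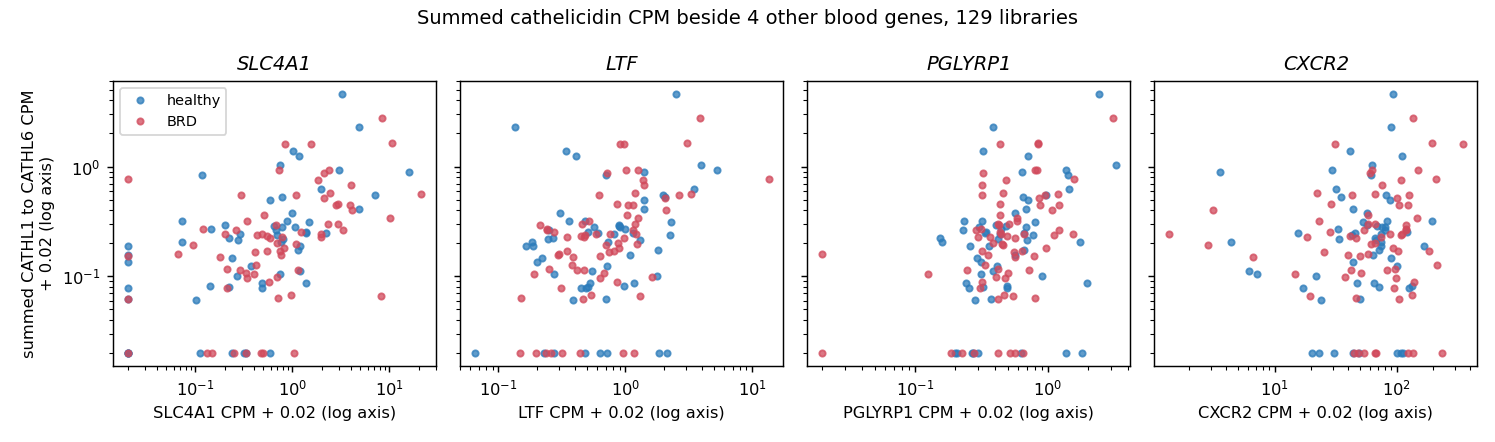
Summed CPM of CATHL1 to CATHL6 plus 0.02 (vertical axis, logarithmic) against the CPM plus 0.02 of SLC4A1, LTF, PGLYRP1 and CXCR2 (horizontal axes, logarithmic) in all libraries from healthy (blue) and BRD (red) steers. The lowest row of points holds the 16 libraries with no member count. Points rise with SLC4A1 (Spearman rho 0.578) and, less closely, with LTF (0.427) and PGLYRP1 (0.396), and show little relation to CXCR2 (0.0877).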

How the data were processed

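Whole blood was drawn into Tempus tubes, and stranded mRNA libraries were sequenced as 150-base pairs. Per the labels and the study's methods, the authors trimmed reads with Trimmomatic 0.39, mapped them to ARS-UCD1.3 with HISAT2 and assembled transcripts with StringTie 2.2.0. The deposited values are gene counts without normalization, derived from read coverage rather than tallied reads.

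Groups, animal numbers and pens came from the labels. Counts were analysed in R 4.3.3 with edgeR 4.0.16: TMM, filterByExpr over class and day (17853 of 32395 genes), a common dispersion estimated on 1000 genes, quasi-likelihood F-tests, and Benjamini-Hochberg adjustment over all tested genes with a threshold of 0.10. SE is the absolute log2 change divided by the root of F. CPM used TMM-scaled totals. Class and supplement contrasts had a mean per class and day and a supplement term per day; changes from day 0 had animal as block. The labels give the animal: libraries of 1 animal had a median correlation of deviations of 0.414, against -0.0169 between animals. Alternatives were RLE factors, DESeq2 1.42.0, a trended dispersion, other filters, no supplement or class term, labelled pens that held both classes, AAC cattle alone, limma 3.58.1 voom, no animal block, and each animal left out. Scripts were tested on simulated counts. The members, gene lists and the rule for the 10 genes most like the family were chosen with earlier results of these data known. One of those genes is not reported here. No 2 libraries had identical counts.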

Additional observations from a re-analysis of the deposited data

Results flagged for a closer look

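Flags were computed on CPM in the AAC and COMBO groups of each day (7 or 8 libraries), and 28 of 51 groups with any count had 1 library far above the others, where chance flags about 1 in 20. In most of these groups the other libraries were at or near 0, so a single low count is enough for a flag. The rate of 1 in 20 need not hold there.

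Steer 31 (BRD, AAC) stood apart at day 28 with 0.465 CPM of CATHL1, 0.355 of CATHL2, 0.443 of CATHL3 and 0.199 of CATHL4, and at day 45 with 0.673, 0.865, 0.505 and 0.336 CPM of the same genes. At day 0 it was flagged with 0.0495 CPM of CATHL4, which is 2 counts and under the detection floor, and 0.0742 of CATHL6, which is 3 counts. Steer 21 (BRD, AAC) stood apart at day 13 with 0.194 CPM of CATHL1, 0.138 of CATHL3 and 1.13 of CATHL5, and at day 60 with 0.171 of CATHL3. Steer 9 (BRD, AAC) did so at day 60 with 0.34 CPM of CATHL5 and 0.0599 of CATHL6, and steer 41 (BRD, AAC) at day 13 with 0.0869 of CATHL6.

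In COMBO cattle the highest value far from the others was that of steer 18 (BRD) at day 45, with 1.59 CPM of CATHL2. Steer 6 (healthy) stood apart at day 0 with 0.163 CPM of CATHL1 and 0.186 of CATHL2, and at day 45 with 0.0709 of CATHL4. Steer 42 (healthy) had 0.215 CPM of CATHL1 and 0.215 of CATHL3 at day 28 and 0.122 of CATHL1 at day 60. Steer 3 (healthy) had 0.142 CPM of CATHL3 at day 13 and 0.0992 of CATHL1 at day 45, and steer 54 (BRD) had 0.0701 of CATHL1 at day 13. Steer 57 (healthy) had 0.046 of CATHL6 at day 28, which is 2 counts and under the detection floor.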

How the results depend on the processing

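The counts of members called kept their value in most alternatives, but most of these counts were 0 and had little room to change. The calls in healthy cattle at day 28 and in BRD cattle at day 45 did not hold throughout. In healthy cattle at day 28 the count was 0 in place of 1 without a supplement term and ran from 1 to 2 with each steer left out. In BRD cattle at day 45 it was 0 in place of 1 with DESeq2, with no filter on low counts, with a trended dispersion and without a supplement term, and ran from 0 to 1 with each steer left out. In BRD cattle at day 28 it was 1 in place of 0 with no filter on low counts. The stricter filter (10 counts in 90% of libraries) kept no member, so it gave no value. At other detection limits, CATHL5 was in 73 libraries at 1 count and 16 at 10 counts, and CATHL1 in 32 and 5; these limits were chosen after seeing the data.

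Without the replicate block by animal, all 3 called changes from day 0 were still called (adjusted p of 0.0918, 0.0224 and 0.0387 by edgeR), and with a replicate block by correlation in limma voom no contrast between classes or supplements was called. Some directions of uncalled log2 changes turned. For CATHL2 these were healthy day 13 (-0.74 with DESeq2, -0.18 trended), healthy day 45 (-0.45 without a supplement term, -0.20 without the block), BRD day 13 (-1.22 with DESeq2, -0.21 trended), BRD day 28 (-0.87 with DESeq2) and BRD day 60 (0.40 without the block). BRD minus healthy of CATHL2 turned at day 0 (0.13 with voom, 0.93 in AAC alone), day 13 (0.83 in mixed pens, 4.97 in AAC) and day 28 (0.32 and 0.96). That of CATHL5 turned at day 28 (0.36 in AAC), day 45 (0.10 with voom, 0.0075 without a supplement term, 0.048 in mixed pens, 0.54 in AAC) and day 60 (-0.10 with DESeq2, -0.062 trended, -0.057 without the day 60 library of steer 40). With each steer left out, CATHL5 BRD minus healthy ran from -0.10 to 1.33 at day 0, -0.52 to 0.46 at day 45 and -0.46 to 0.31 at day 60, CATHL2 BRD minus healthy from -1.91 to 1.23 at day 13, and the CATHL2 change in BRD cattle at day 13 from -0.20 to 0.72. The cause was not tested.

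For the changes from day 0, steers were left out only of the 3 called changes, in their own class and with the common dispersion held at its value over all steers; other leave-outs of that fit were not run. Counts near 0 limit every result here: 1 count is 0.0228 CPM.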
